A study of Mus musculus with 4 samples.

Results

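The Igf2-H19 and Cdkn1c imprinted domains are neighbouring stretches of distal mouse chromosome 7 in which most genes are transcribed from the allele of only 1 parent. They were examined here as 8 genes: Igf2 and H19 of the first domain, Cdkn1c, Kcnq1ot1, Phlda2, Slc22a18 and Ascl2 of the second, and Igf2r, an imprinted gene of chromosome 17 whose product binds the Igf2 protein. The members were all probe sets whose platform annotation names one of these genes, 19 of the 45101 probe sets on each array. Of these, 17 carried 1 gene symbol. The only H19 probe set was annotated to Mir675 as well, a microRNA gene that lies inside H19 in the RefSeq annotation, and another Igf2r probe set was annotated to Airn too. The signal of those 2 probe sets cannot be assigned to one of their genes, so H19 is reported as the Mir675/H19 probe set and was tested only in the fit over all probe sets.

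The arrays came from kidneys of chimeric mouse embryos on embryonic day 15.5. Wildtype blastocysts had been injected with 3 to 5 embryonic stem cells that carried green fluorescent protein (GFP) and lacked the transferrin receptor gene Tfrc, and the kidneys were dissociated with collagenase and trypsin and sorted by GFP. One group was GFP-positive and labelled Tfrc-/-, the other was GFP-negative and wildtype, with 2 arrays in each group, so all RNA came from sorted cells of kidneys that held both kinds of cell. No group held donor-derived cells with Tfrc intact. The sources used here do not give the donor line, its strain or the part of Tfrc that was deleted, so Tfrc status, donor line and GFP cannot be told apart in any difference below. Strain and parental origin of the alleles were not measured.

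In the Igf2-H19 domain, a methylated control region on the paternal chromosome lets shared enhancers drive Igf2, and the same region, unmethylated and bound by the insulator protein CTCF, directs them to H19 on the maternal chromosome. In the neighbouring domain, the long noncoding RNA Kcnq1ot1 is transcribed from the paternal chromosome and silences Cdkn1c, Phlda2, Slc22a18 and Ascl2 there, which leaves their maternal copies active. Igf2 drives fetal growth, Igf2r removes the Igf2 protein by carrying it to lysosomes, and Cdkn1c holds back the cell cycle. In the fetal kidney, Cdkn1c is known from podocytes and Igf2 from mesenchyme. These arrays measured total transcript and not the parental alleles.

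The sequences below show the small RNAs carried by the growth-regulating pair and the stretch of DNA from which Kcnq1ot1 starts. Mir675 lies within H19 and Mir483 within Igf2. The seed, bases 2 to 8, is in capitals, and the sequences are from RefSeq in build GRCm38.p6, all on the minus strand of chromosome 7. The miR-675 arms lie at chr7:142577112-142577133 and chr7:142577078-142577099, and the miR-483 arms at chr7:142654968-142654989 and chr7:142654932-142654952.
mmu-miR-675-5p: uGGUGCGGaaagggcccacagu
mmu-miR-675-3p: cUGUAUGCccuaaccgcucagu
mmu-miR-483-5p: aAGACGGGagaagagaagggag
mmu-miR-483-3p: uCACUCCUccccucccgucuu
The 4 arms had 4 different seeds. The mature forms were not analysed here, and the array values concern the longer transcripts.

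Promoter sequence was held for 6 of the 8 genes, in 9 windows of 300 bases that run from 250 bases before to 50 bases after a start. The Kcnq1ot1 window, at chr7:143296498-143296797 on the minus strand, is shown because transcription from this promoter defines the second domain. Its CCAAT boxes, the letters bound by the factor NF-Y, are in capitals.
Kcnq1ot1 promoter: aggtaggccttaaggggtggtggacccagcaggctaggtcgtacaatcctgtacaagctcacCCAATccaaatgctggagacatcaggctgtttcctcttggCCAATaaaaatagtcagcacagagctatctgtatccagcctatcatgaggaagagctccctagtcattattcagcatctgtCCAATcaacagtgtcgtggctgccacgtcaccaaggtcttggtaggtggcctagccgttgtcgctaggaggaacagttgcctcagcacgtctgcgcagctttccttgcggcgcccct
The motif CCAAT, searched on both strands, occurred 3 times in this window, and 3.37% of the 32851 RefSeq promoter windows held at least as many. The Ascl2 window also held 3. At least 1 CCAAT was found in 37.4% of all windows, and matches of this kind are descriptions of the letters only.

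The Igf2 start nearest to H19 is shown as the other side of the pair, with 250 bases of the minus strand before the start at chr7:142657497-142657746 and the motif GGGCGG, a recognition sequence of Sp1, in capitals.
Igf2 upstream: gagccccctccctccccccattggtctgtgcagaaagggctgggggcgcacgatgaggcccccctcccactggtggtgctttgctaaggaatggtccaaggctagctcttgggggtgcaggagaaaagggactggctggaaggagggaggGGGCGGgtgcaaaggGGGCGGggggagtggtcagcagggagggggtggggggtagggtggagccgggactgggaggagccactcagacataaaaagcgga
GGGCGG, searched on both strands, occurred 2 times in this Igf2 window, and 35.7% of all promoter windows held it at least once. The Igf2 gene had 4 annotated windows, with 2, 7, 14 and 24 CpG dinucleotides, against a median of 7 over all windows. The Igf2r window held 34 CpG, a number that 7.7% of all windows reached. The probe sets do not tell the starts of Igf2 apart.

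The gene named in the labels did not have a lower signal in the group labelled as lacking it. The brightest Tfrc probe set read 1759 and 2348 in wildtype cells against 2509 and 3175 in those labelled Tfrc-/-. This was a log2 difference of 0.47 (standard error, SE, 0.24, limma adjusted p = 0.744). The other Tfrc probe sets above the control level differed by 0.50, 0.70, 1.42 and 0.47. The one near the 5' end, at -0.22, did not exceed the control level on any array. The deleted part is not given, so whether any of these probe sets lies within it is unknown. These values therefore do not check the label. Every direction given here rests on the labels. Median intensities were 17.5 to 19.3 over the arrays, and the number of arrays limits the precision. The smallest two-sided p that an exact permutation test allows in this design is 0.333.

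Of the 8 members, Igf2 had a higher signal in the cells labelled Tfrc-/- and the Mir675/H19 probe set and Cdkn1c lower ones, while Kcnq1ot1, Phlda2, Slc22a18, Ascl2 and Igf2r differed by under 0.2 on the log2 scale. Differences throughout are mean log2 intensity of the arrays labelled Tfrc-/- minus that of the wildtype arrays, with the standard error (SE) of limma's model fitted across all genes or probe sets. No member passed an adjusted p of 0.05 in limma, 0 of 8, and neither did any of 18194 genes (0%) or 45101 probe sets (0%). At an unadjusted p under 0.05 stood 2 of the 7 members in the gene test, Igf2 and Cdkn1c, where 8.02% of all genes did. Among the 19 member probe sets 4 did so, against 7.23% of all probe sets.

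Groups that did not overlap were seen for 3 of the 7 members in the gene test (42.9%), Igf2, Cdkn1c and Igf2r, and for 34.9% of all genes, so this count is near the background. Among the 19 probe sets there were 6 (31.6%), beside 33.5% of all probe sets, and 1 of the 6, for Ascl2, did not exceed the level of the control probe sets on any array. With at least a 2-fold difference as well, Cdkn1c remained, 1 of the 7, where 2.66% of all genes (484) did so, and 919 genes without wildtype replicate 2. Of the 19 probe sets 2 did, the fainter of Igf2 and that of Cdkn1c, beside 2.39% of all probe sets. The median log2 difference over the 8 members was -0.01, beside 0.04 over all genes tested.

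Igf2, a secreted growth factor of the fetus, was bright on every array. Its brighter probe set (1448152_at) read 3854 and 3366 in wildtype cells against 5268 and 5475 in those labelled Tfrc-/-. Both arrays labelled Tfrc-/- lay above both wildtype arrays. The group means were 3610 ± 344.8 and 5372 ± 146.6 (SD, n = 2 each), a log2 difference of 0.58 (SE 0.19, 95% interval 0.10 to 1.05), or 1.49-fold. It did not pass the test over 18194 genes (limma adjusted p = 0.515). Of all genes, 95.1% had a smaller or equal difference.

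The fainter Igf2 probe set (1415931_at) differed the same way at a far lower signal. It read 19.4 and 15.8 in wildtype cells against 29.9 and 47.7 in those labelled Tfrc-/-, again with no overlap. Its log2 difference was 1.11 (SE 0.29), with an adjusted p of 0.464 in limma's fit over all 45101 probe sets.

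H19, the noncoding partner of Igf2, is transcribed from the opposite parental chromosome. The Mir675/H19 probe set (1448194_a_at) read 7326 and 6492 in wildtype cells against 4083 and 3539 in those labelled Tfrc-/-. Here both arrays labelled Tfrc-/- lay below both wildtype arrays, the reverse of Igf2. Group means were 6909 ± 590.0 and 3811 ± 384.6 (SD, n = 2 each), a log2 difference of -0.86 (SE 0.19, 95% interval -1.36 to -0.36), or 1.81-fold lower. It did not pass either (limma adjusted p = 0.392 over all probe sets), and 2.38% of probe sets had as low or a lower difference.

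The Igf2 and Mir675/H19 groups lay apart in opposite directions, so any pairing of arrays gives differences of opposite sign. The values by array number describe their size only. For Igf2 the log2 difference was 0.45 between the arrays numbered 1 and 0.70 between those numbered 2, and for Mir675/H19 it was -0.84 and -0.88. Their distances between the 2 wildtype arrays were smaller than the group differences, as the plot of member signals by array shows.

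**Figure D1:**
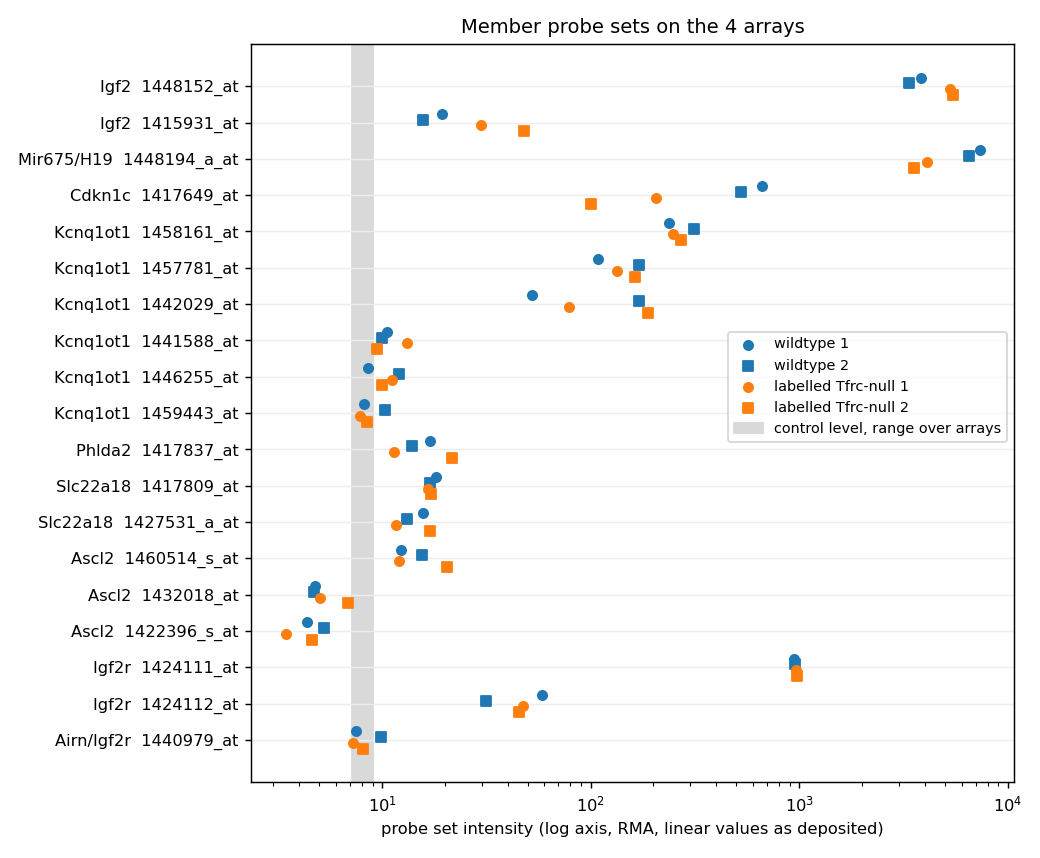
Intensity of the 19 member probe sets on the 4 arrays, on a log axis, with wildtype arrays in blue and arrays labelled Tfrc-/- in orange, circles for arrays numbered 1 and squares for arrays numbered 2, and in grey the range of the control level, the highest of 27 Bacillus subtilis control probe sets on an array. Igf2 lay higher and Mir675/H19 and Cdkn1c lower on the arrays labelled Tfrc-/- with no overlap, while the Kcnq1ot1, Phlda2 and Slc22a18 probe sets overlapped.

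Cdkn1c, the cyclin-dependent kinase inhibitor p57Kip2, stood furthest apart of the members. Its probe set (1417649_at) read 659.7 and 524.5 in wildtype cells against 206.2 and 100.2 in those labelled Tfrc-/-. The arrays labelled Tfrc-/- lay below both wildtype arrays and also apart from each other, by 1.04 on the log2 scale. The means were 592.1 ± 95.6 and 153.2 ± 74.9 (SD, n = 2 each), a log2 difference of -2.03 (SE 0.38, 95% interval -3.00 to -1.07). Cdkn1c did not pass over all genes (limma adjusted p = 0.242), although only 0.22% of genes had as low or a lower difference. The difference was -1.68 between the arrays numbered 1 and -2.39 between those numbered 2.

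The other genes of the Cdkn1c domain showed no such distance. Kcnq1ot1, the noncoding RNA that silences the paternal copies, had 6 probe sets, all above the control level on every array. Its brightest (1458161_at) read 236.8 and 312.4 in wildtype cells against 249.4 and 272.0 in those labelled Tfrc-/-, so the groups overlapped. The log2 difference was -0.06 (SE 0.22, 95% interval -0.62 to 0.49, limma adjusted p = 0.997).

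Over the 6 Kcnq1ot1 probe sets the differences ran from -0.18 to 0.37, 4 were above 0, and every one had overlapping groups. Of these, 1441588_at, 1446255_at and 1459443_at read only 7.82 to 13.1, near the control level of 7.18 to 9.08. The -0.18 came from 1459443_at. The second brightest Kcnq1ot1 probe set read 108.2 and 170.5 against 133.5 and 163.1. Another Kcnq1ot1 probe set read 52.4 and 169.7 against 79.0 and 187.6, so its arrays split by replicate number: the arrays numbered 2 stood 3.24-fold and 2.38-fold above those numbered 1. Beta-actin signal near the 3' end over that near the 5' end, often read as a measure of RNA integrity, also split by number. It was 5.51 and 5.89 for number 1 against 6.49 and 7.21 for number 2. The RNA had been amplified, and the parts of RNA integrity and of amplification in this split were not tested. Kcnq1ot1 lies within Kcnq1 in the annotation, and whether its probe sets also detect unspliced Kcnq1 RNA was not tested.

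Phlda2, which limits placental growth, was faint. Its probe set (1417837_at) read 16.9 and 13.9 in wildtype cells against 11.4 and 21.5 in those labelled Tfrc-/-, so the wildtype values lay between the others. The log2 difference was 0.03 (SE 0.35, 95% interval -0.85 to 0.91). It was -0.57 between the arrays numbered 1 and 0.63 between those numbered 2.

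Slc22a18, a transporter of the organic cation family (1417809_at), read 18.19 and 17.01 in wildtype cells against 16.68 and 17.21 in the others. The groups overlapped within a narrow range, with a log2 difference of -0.05 (SE 0.18, 95% interval -0.51 to 0.40). A fainter Slc22a18 probe set had a log2 difference of -0.03.

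Ascl2, a transcription factor of the trophoblast and of intestinal stem cells, was at the low end of the members. Of its 3 probe sets, 2 did not exceed the control level on any of the 4 arrays, and their differences are not read here. The remaining probe set (1460514_s_at) read 12.3 and 15.5 in wildtype cells against 12.0 and 20.5 in those labelled Tfrc-/-. These overlapped, with a log2 difference of 0.19 (SE 0.31, 95% interval -0.60 to 0.98).

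Thus 4 of the 5 members of the Cdkn1c domain differed by under 0.2 on the log2 scale, and their groups overlapped. Their intervals include differences from -0.62 to 0.49 for Kcnq1ot1, -0.85 to 0.91 for Phlda2, -0.51 to 0.40 for Slc22a18 and -0.60 to 0.98 for Ascl2. Of these 4, only Kcnq1ot1, by its brightest probe set, was bright enough to lie well above the control level of 7.18 to 9.08.

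Igf2r, the cation-independent mannose 6-phosphate receptor, was nearly constant. Its brighter probe set (1424111_at) read 940.0 and 950.5 in wildtype cells against 966.2 and 978.7 in those labelled Tfrc-/-. Both arrays labelled Tfrc-/- lay above both wildtype arrays, but by 1.03-fold only, a log2 difference of 0.04 (SE 0.18, 95% interval -0.41 to 0.49). A fainter Igf2r probe set read 58.3 and 31.4 against 47.2 and 45.2, with overlapping groups. The Airn/Igf2r probe set lay between 7.25 and 9.89, above the control level on 3 of the 4 arrays.

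**Figure D2:**
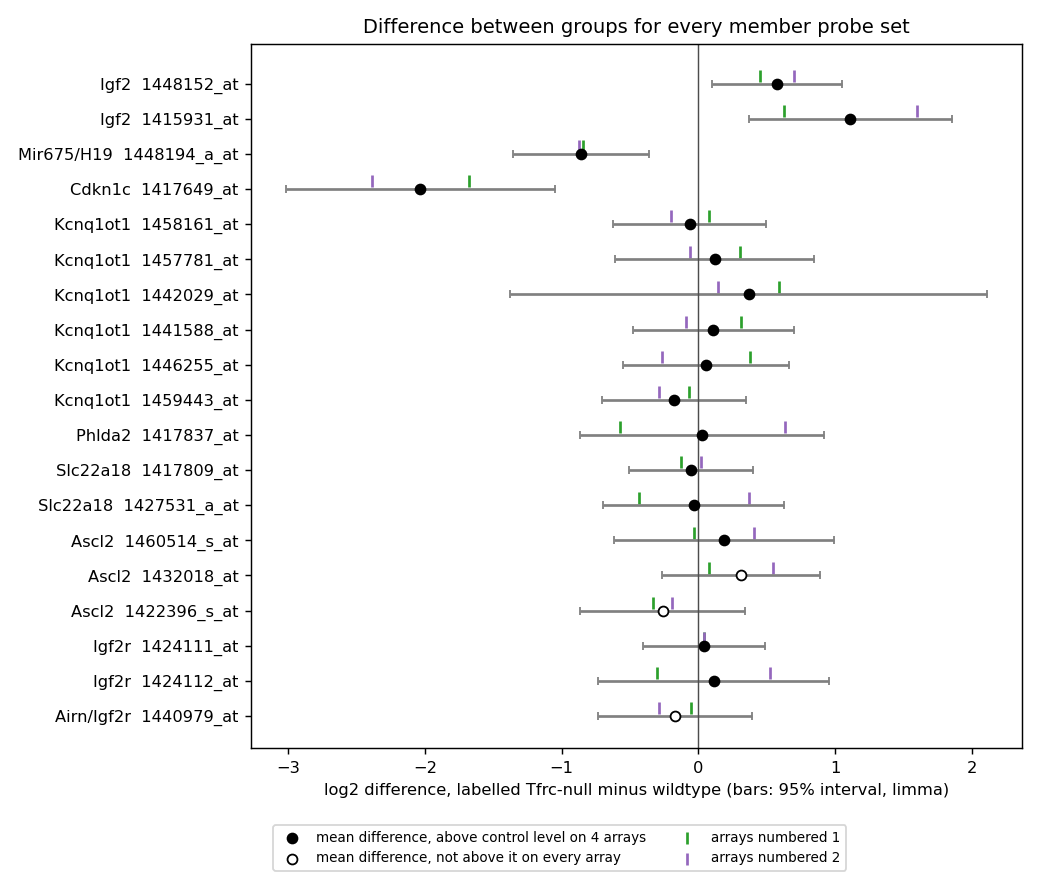
Log2 difference of each member probe set, labelled Tfrc-/- minus wildtype, with its 95% interval from limma's fit over all probe sets, and short coloured lines for the difference between arrays of the same number. The intervals of the 2 Igf2 probe sets lie above 0 and those of Mir675/H19 and Cdkn1c below it, before any adjustment, and the intervals of the other 15, among them 2 of Ascl2 that did not exceed the control level on any array, include 0.

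The genes whose 4 values ran most like those of the members were sought by the distance between log2 values centred on each gene's mean, over the 4 arrays and 13572 genes above the control level on all of them. Nearest to Igf2 were P3h3, Tmco6 and Tfap2c, at distances of 0.0365, 0.0439 and 0.0446 on the log2 scale. Nearest to the Mir675/H19 probe set were Erbb3 (0.0556), Wfdc2 (0.0764) and Nmnat3 (0.0801). Nearest to Cdkn1c were Abcb10 (0.110), Gcnt3 (0.154) and B3galt6 (0.207). For Igf2r, Vpreb3, Ogfod3 and Timm10 lay at 0.0176, 0.0212 and 0.0235. With 4 points such a likeness is a description only.

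The neighbours of the members along chromosome 7 showed where the differences lay. Of 9 measured genes around Igf2 and H19, 0 passed over all genes, 7 had a higher mean, and 1, Igf2os, had groups that did not overlap, beside 34.9% of all genes. Of all 18194 genes, 10469 had a higher mean, and the counts of higher means below stand beside that number. Igf2os, an antisense transcript that overlaps Igf2, read 12.8 and 25.6 in wildtype cells against 64.0 and 75.3 in those labelled Tfrc-/-. Both arrays labelled Tfrc-/- lay above both others, with a log2 difference of 1.94 (SE 0.36, limma adjusted p = 0.244). Whether its probe set tells the strands apart was not tested.

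Tnnt3, Tnni2 and Lsp1, which lie on the other side of H19, had log2 differences of 0.36, 0.29 and 0.23 with overlapping groups. A second Tnni2 probe set differed by -0.18. The median over the 9 genes was 0.18.

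Of 12 measured genes around the Cdkn1c domain, 0 passed, 7 had a higher mean, and the median log2 difference was 0.02. Trpm5, a calcium-activated channel gene between Ascl2 and Kcnq1, read 28.9 and 31.3 in wildtype cells against 48.6 and 55.8 in the others, a log2 difference of 0.79 (SE 0.19, limma adjusted p = 0.345). Its 2 further probe sets above the control level differed by 0.28 and 0.65. Osbpl5, a lipid transfer gene, had 0.50 (SE 0.21), again without overlap. Kcnq1, the potassium channel gene in which Kcnq1ot1 lies, read 11.9 and 28.0 against 12.3 and 10.8, and Nadsyn1 had -0.23.

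**Figure D3:**
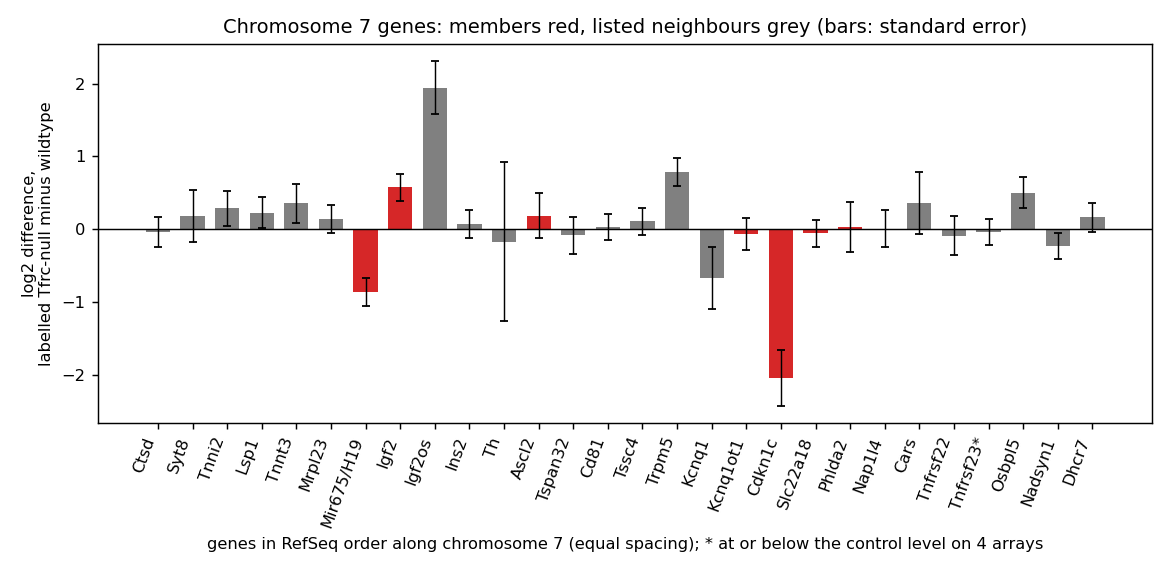
Log2 difference, labelled Tfrc-/- minus wildtype, for members (red) and listed neighbours (grey) in their RefSeq order along chromosome 7, equally spaced, with standard errors. Igf2os and Igf2 lie above 0 beside Mir675/H19 below it, and Cdkn1c lies below 0 between Kcnq1ot1 and Slc22a18, which differ by under 0.2. Tnfrsf23 did not exceed the control level on any array.

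Around Igf2r on chromosome 17, 9 genes were measured, 0 passed, 6 had a higher mean, and the median was 0.10. Mas1 and Plg, counted among the 9, did not exceed the control level on any array. The median was the value of Plg itself, so it is a reading near background. Mrpl18, Pnldc1 and Tcp1 had log2 differences of 0.31, 0.31 and 0.15 without overlap, and Slc22a2 had -0.64 with overlap.

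Among 21 other genes of insulin-like growth factor signalling, 0 passed over all genes, 11 had a higher mean and 10 a lower one, and the median was 0.01. Igfbp6, a binding protein that prefers the Igf2 protein, read 29.8 and 21.2 in wildtype cells against 55.8 and 49.0 in those labelled Tfrc-/-. This was a log2 difference of 1.06 (SE 0.24, limma adjusted p = 0.313), with no overlap. Pappa2, a protease that releases growth factor from binding proteins, read 42.0 and 51.9 against 27.2 and 26.5, a difference of -0.80 (SE 0.20). Stc1, whose product inhibits such proteases, had 0.60 (SE 0.18).

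Igf1, the sister ligand, read 213.4 and 349.3 in wildtype cells against 350.5 and 523.0 in those labelled Tfrc-/-, a difference of 0.65 (SE 0.33). The highest wildtype array and the lowest other array were nearly equal, and its other 3 probe sets above the control level differed by 0.74 to 1.02. The receptor genes Igf1r and Insr had -0.17 and -0.29, named here after their values were seen.

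The other cyclin-dependent kinase inhibitors did not stand as far apart as Cdkn1c. Of 7 measured, 0 passed, and the differences ran from -0.46 to 0.48. Cdkn1b, the inhibitor p27Kip1, read 775.1 and 1040.3 in wildtype cells against 605.4 and 703.6 in the others, a difference of -0.46 (SE 0.23), while a second Cdkn1b probe set differed by 0.33. Cdkn1a, the inhibitor p21Cip1, had 0.36 with overlap and a second probe set at -0.17. Cdkn3, a phosphatase of cyclin-dependent kinases, had 0.48 and Cdkn2c 0.35.

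Genes that set or keep imprints lay close to 0. Of 16 measured, 0 passed, 11 had a higher mean, and the differences ran from -0.23 to 0.37 around a median of 0.06. Zfp57, a zinc finger protein that protects methylated control regions, read 216.5 and 164.3 in wildtype cells against 228.3 and 243.7 in the others, a difference of 0.32 (SE 0.22). The maintenance methyltransferase Dnmt1 had -0.23, and its 2 other probe sets above the control level -0.37 and 0.31. Tet1 had 0.37, with other probe sets from -0.50 to 0.001, and Dnmt3l had 0.23 near the control level.

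Other imprinted loci were set beside these domains. All 4 measured genes of the Dlk1-Meg3 locus had higher means without overlap, which 34.9% of all genes had in either direction, and their median log2 difference was 1.29, against -0.05 over the 5 members of the Cdkn1c domain. Among the 9 further Meg3 probe sets above the control level, 1 differed the other way. A second probe set differed by 0.12 for Mirg and 1.04 for Dlk1, less than the 1.57 and 2.26 of those used. Further Rian probe sets ran from 0.58 to 1.24, around the 0.63 of the one used. The Peg10-Sgce-Asb4 locus held genes far apart in opposite directions, with 2.27 for Peg10 and -1.59 for Asb4. Of its 10 measured genes, 5 had a higher mean and 5 a lower one. Among them, Calcr did not exceed the control level on any array and Pon1 did so on 1 only. Their median was 1.85e-04, beside -0.01 over the 8 members. It lay between Pon3 at -0.03 and Pon2 at 0.03, so it does not describe the genes that stood far apart. Of 24 imprinted genes elsewhere, 18 had higher means, with a median of 0.37. Grb10, an adaptor that restrains insulin-like growth factor signalling, read 4517 and 4763 in wildtype cells against 2924 and 2188 in the others, a difference of -0.87 (SE 0.22, limma adjusted p = 0.372). Its 2 other probe sets above the control level differed by -1.91 and -0.52. Zdbf2, Magel2 and Trappc9 had 1.05, 0.91 and 0.70. Over these 3 lists 0 genes passed, and the difference between loci was not tested.

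Markers of several kidney cell types also differed in value between the groups. In bulk samples, fewer cells of a type and less RNA per cell cannot be told apart. Ureteric bud and collecting duct markers had lower means in 11 of 11 measured genes, with a summed intensity of 7150 and 7669 in wildtype cells against 2840 and 3582 in those labelled Tfrc-/-. Endothelial markers had lower means in 11 of 11, summing to 6273 and 5425 against 3905 and 3263. Stromal markers had higher means in 12 of 13, summing to 19015 and 14683 against 23233 and 20292. Every measured marker of these 3 lists exceeded the control level on at least 1 array. Their part in the Igf2, Mir675/H19 and Cdkn1c values was not tested.

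Podocyte markers, which mark cells where Cdkn1c is known to be high, had a median difference of 0.17 with 6 of 10 genes higher, and summed to 5036 and 4685 against 4986 and 4210. The part of podocyte RNA in the Cdkn1c values was not tested. Nphs1, the slit diaphragm protein nephrin, had a higher mean with a log2 difference of 0.93 (SE 0.31), and Npnt and Cd2ap had -0.36 and -0.27, with other Npnt probe sets from -0.96 to 0.11. Skeletal muscle markers had higher means in 9 of 9, with sums of 162.8 and 211.4 against 275.9 and 408.7. The higher sum rested largely on Tnnt1, at 84.2 and 80.8 against 193.5 and 164.9. On the arrays numbered 2 it also rested on Actc1, at 18.2 and 54.7 against 14.9 and 123.5. Groups did not overlap for 2 of the 9, beside 34.9% of all genes. Myf5 and Acta1 exceeded the control level on 1 array each. The part of muscle RNA in the Igf2 values was not tested. Cortical adrenal markers, from a gland next to the kidney, summed to 132.5 and 144.6 against 180.0 and 187.1. Of these 8 genes 4 had a higher mean and 4 a lower one, and the higher sum rested on Mc2r, the corticotropin receptor, at 40.7 and 28.9 against 80.3 and 78.9, while Nr5a1 had -0.56 without overlap. The steroidogenic genes Hsd3b1 and Cyp17a1 did not exceed the control level on any array.

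Erythroid markers had lower means in 10 of 10, with sums of 1396 and 4196 in wildtype cells against 108.1 and 129.2 in the others. Neutrophil markers had lower means in 6 of 8, summing to 5077 and 8647 against 150.7 and 577.3. Both sums separated the groups, with wildtype replicate 2 the highest array, and their part in the member values was not tested. Of these markers, Hba-a1, Epb42 and Rhag of the erythroid list and Elane of the neutrophil list did not exceed the control level on any array. Macrophage and leukocyte markers overlapped in their sums, but single genes went both ways, with higher means in 8 of 11. Groups did not overlap for 2 genes higher and 3 lower, which 34.9% of all genes had in either direction. Ptprc, Ctss and Lyz2 had -0.73, -0.64 and -0.72, and Mrc1 had 0.57. Cap mesenchyme markers, of the nephron progenitors, had lower means in 7 of 9 and nephron tubule markers in 9 of 10. Nerve and liver markers overlapped in their sums, though some of their genes did not. Of the 7 measured nerve markers, 4 had a higher mean and 3 a lower one. Elavl4 had -1.16, and Ngfr and Fabp7 had 0.54 and 0.71, each without overlap. Of the 7 measured liver markers, 5 had a higher mean, and Apoa2 had -0.56 without overlap. Of the 8 pluripotent cell markers, 3 did not exceed the control level on any array.

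**Figure D4:**
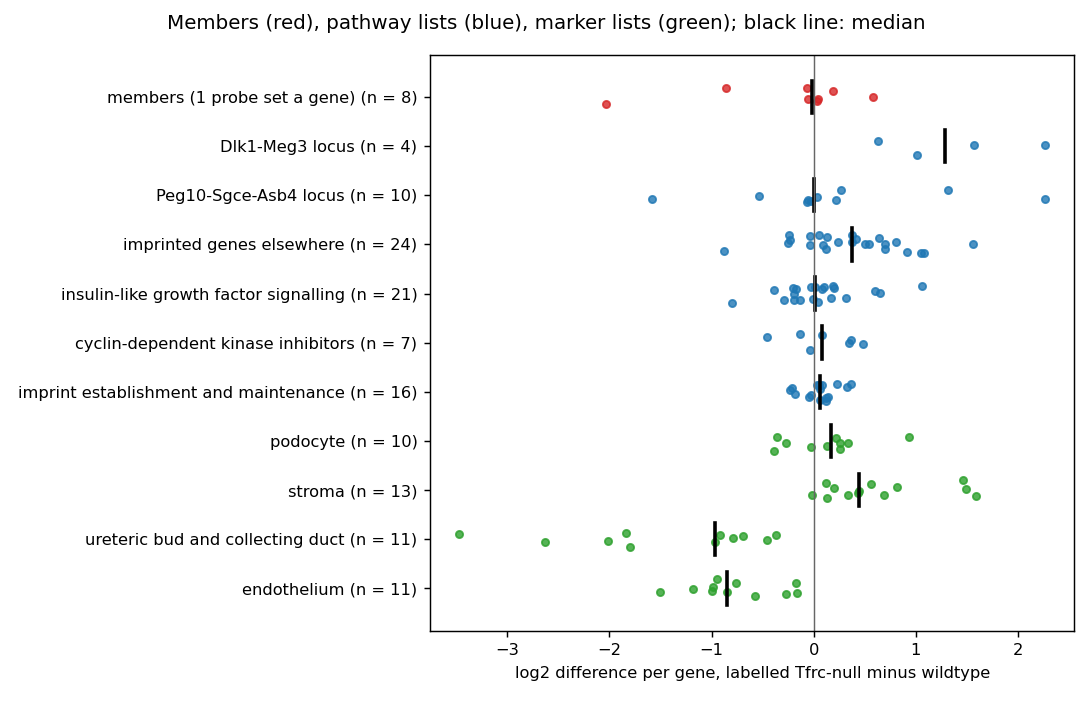
Log2 difference per gene, labelled Tfrc-/- minus wildtype, for the 8 members (red), pathway lists (blue) and marker lists (green), with the median of each as a black line. Cdkn1c at -2.03 stands at the edge of the members, and the lists of ureteric bud and endothelial markers lie wholly below 0.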

How the data were processed

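Kidney RNA, 50 ng per sample, was amplified and biotin-labelled per the labels' protocols and hybridised to 4 arrays, 2 per group. The authors deposited probe set intensity values on a linear scale. Per the submitters' processing notes RMA was used, and its version, settings and the step back from log2 are not given in the sources used here. This method equalises the arrays' distributions, which would remove a difference shared by most genes.

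The log2 of each intensity was used as it stood. Symbols came from the platform annotation, updated by Entrez identifier from RefSeq (GRCm38.p6), where 18033 of 18194 genes were found. The 932 probe sets with several symbols and the 9211 with none were left out of the gene test. Where a gene had several probe sets, the one brightest on average stood for it. Differences (labelled Tfrc-/- minus wildtype) were fitted without a block in R 4.3.3 by limma 3.58.1 (lmFit, eBayes). The p-values were adjusted by Benjamini-Hochberg over all genes, or over all 45101 probe sets for single probe sets, at a threshold of 0.05. SE and intervals are the model's. The fit was run on simulated data with known differences and independent noise drawn from limma's own model. That checks the code only, since the data's shared deviation of same-numbered arrays was left out.

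The members and lists were chosen with earlier results of these data known. The rule for named genes took all member probe sets, up to 4 genes of each of the further pathway lists and up to 3 of each marker list by smallest p, and 3 genes nearest to Igf2, H19, Cdkn1c and Igf2r. The labels call the arrays biological replicates without naming animals, so p-values measure the spread between these samples, which may be technical. Alternatives were the replicate block, other probe set choices, scalings, a filter on dim genes, a pseudocount of 16, a trended prior and leaving out each array.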

Additional observations from a re-analysis of the deposited data

How the results depend on the processing

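Igf2, Mir675/H19, Cdkn1c, Slc22a18 and Igf2r kept their direction and stayed short of the threshold under every alternative run. These numbered 10 for Mir675/H19 and 12 for each of the others. The groups of Igf2, Mir675/H19, Cdkn1c and Igf2r did not overlap, so leaving out 1 array could not reverse them. Those of Slc22a18 overlapped, and its difference ran from -0.10 to -0.005 with 1 array left out. Its kept sign is therefore that of a difference near 0. The replicate block, dim-gene filter, trended prior and fit over every probe set leave the estimate itself unchanged. In those runs a kept direction says nothing about stability. Leaving out 1 array each, the log2 difference ran from 0.48 to 0.67 for Igf2, from -0.96 to -0.76 for Mir675/H19 and from -2.55 to -1.51 for Cdkn1c. Over all alternatives their adjusted p ran from 0.248 to 1 for Igf2, 0.169 to 1 for Mir675/H19 and 0.114 to 0.959 for Cdkn1c. The upper ends came from fits with 1 array left out, where the spread comes from the other group only and 0 genes passed, so these say nothing about stability. The differences of Kcnq1ot1, Phlda2 and Ascl2, also near 0, changed sign. Kcnq1ot1 stood at 0.069 when a gene took the mean of its probe sets. With 1 array left out, Kcnq1ot1 ran from -0.26 to 0.14, Phlda2 from -0.43 to 0.49 and Ascl2 from -0.19 to 0.57. The cause was not tested. Genes past the threshold numbered 2 with the replicate block, 1 with that mean, 2 with arrays centred on the median and 2 with a trended prior; members past it numbered 0 in each. Genes with a 2-fold difference and no overlap numbered 309 with that mean, 243 with a pseudocount of 16, 1076 when every probe set was counted, and 600 to 919 with 1 array left out. Same-numbered arrays deviated together (correlation 0.51 across genes, which are not independent replicates), but the labels tie the 2 numbers to no animal, litter or day. With the replicate block the adjusted p was 0.114 for Cdkn1c, 0.227 for Mir675/H19 and 0.248 for Igf2. Differences of faint probe sets near the control level, such as those of Ascl2 and Phlda2, are limited by signal over background.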
